A study of Mus musculus with 6 samples.

Results

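A set of 10 classical HIF-1 target genes that lie outside glycolysis was examined in mouse B cells cultured to switch to IgA, with and without *Hif1a*. They were *Mif*, *Vegfa*, *Adm*, *P4ha1*, *P4ha2*, *Ero1l*, *Bnip3*, *Bnip3l*, *Ndrg1* and *Ankrd37*, taken for their place in the hypoxia response. The choice was made with earlier results of these data known, so counts over the members only describe them. All 10 were found among the 46983 genes listed in the RNA-seq table, and 9 of them were among the 13312 genes with a mean of at least 0.5 FPKM over the 6 libraries, which were tested. The gene left out was *P4ha2*. FPKM is a read count scaled to the length of the transcript and to the depth of the library, so levels can be compared approximately. It does not correct for differences in RNA composition between libraries. Median-ratio scaling of the libraries, tried as an alternative, moved the median log2 fold change over all genes from −0.028 to 0.0019.

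There were 3 WT and 3 *Hif1a* KO libraries, all from splenic B cells of C57BL/6 mice after 3 days with 5 µg/ml LPS and 10 ng/ml each of BAFF, IL-5 and TGF-β. In the KO mice a floxed *Hif1a* allele was deleted by Mb1-cre, which acts throughout the B-cell lineage. The study used littermates as WT, either f/+ with cre or f/f without cre, and which kind gave which library is not stated in the labels. The study describes the cells as sorted CD21int CD23+ follicular B cells, whereas the labels name splenic B cells. No source used here says whether the 3 libraries of a group came from separate animals, so the p-values measure the spread between these libraries, which may be technical.

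HIF-1 is a transcription factor made of an oxygen-regulated α subunit, encoded by *Hif1a*, and the stable partner ARNT. When oxygen is sufficient, prolyl hydroxylases mark the α subunit for degradation, and when oxygen is low, or in immune cells activated through Toll-like receptors, it accumulates and binds short hypoxia response elements near its targets. Beside the glycolytic enzymes, these targets include secreted factors, enzymes of collagen and disulfide formation, and receptors that direct the removal of mitochondria.

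The libraries held between 25030210 and 37222477 reads, as recovered from the FPKM values, and at the lowest depth 1 read on a 1 kb transcript was worth 0.04 FPKM. *Hif1a* itself was at 36.5, 49.8 and 45.8 FPKM in WT and at 46.5, 45.6 and 52.8 FPKM in KO, and its log2 fold change was 0.14 (SE 0.12, limma adjusted p = 0.701). A value for the whole gene does not report on the floxed part, so the labels could not be checked in this way. WT replicate 1 stood apart from the other WT libraries. On the first principal component, which held 54.7% of the variance, it scored −15.7, against 26.2 and 25.9 for WT replicates 2 and 3 and −19.5 to −7.1 for the KO libraries. The summed FPKM of 8 B-cell markers was 3056 to 4126 in all libraries. In WT replicates 2 and 3 the sum of 15 macrophage and monocyte markers was 295.9 and 221.4 FPKM. It was 122.8 to 154.8 FPKM in the other 4 libraries, and *Adgre1* and *Mpeg1* made up most of it in every library. *Cd163* was at 0 in every library, and 11 of the 15 were higher in both of these WT libraries than in every other library. The share of all genes with that pattern was not computed. WT replicate 1 was nearer to the KO mean than to the mean of the other WT libraries for 77.5% of all genes tested. The sum of 11 neutrophil markers was 43.5 FPKM in WT replicate 1 and at most 0.606 FPKM elsewhere. Whether WT replicate 1 came from the other kind of WT littermate or carries a wrong label was not tested, and every WT mean rests on its label. The 9 tested members are therefore given with all 6 libraries and without WT replicate 1.

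To show the sequence at the starts of these genes, RefSeq windows of 300 bases (250 before the transcription start and 50 from it, build GRCm38.p6) were searched on both strands for ACGTG and GCGTG, the core letters of the hypoxia response element. Of the 10 genes, 8 had a window, and *Vegfa* had 2, for separate starts. A core stood in 8 of these 9 windows, compared with 43.8% of all 32851 windows. *Bnip3* had 5 matches, *P4ha2* and *Ankrd37* 4 each, *P4ha1* and *Ero1l* 3 each, *Adm* 2 and *Mif* 1, while *Vegfa* had none at its first start and 2 at its second. The second *Vegfa* window (chr17:46025114-46025413) lay inside the annotated span of the gene, and the window without a match was the one at its upstream end. A match describes the letters of the window and is no evidence of binding. The stretches shown are those of *Mif* and *P4ha1*, whose WT and KO libraries did not overlap, of *Adm*, which differed once WT replicate 1 was left out, and of *Bnip3*, with the most matches. They are written 5′ to 3′ on the strand of the gene, and capitals mark each core or its reverse complement. The 250 bases before the start are given, except for *Mif*, whose single match lay 30 bases past the RefSeq start and is shown in 30 bases. The annotated span of *Mif* given below begins further downstream, at 75860240, so by that span the match lies before the gene. The match in *Bnip3* written CACGTG reads ACGTG on both strands, so it counts as 2 of the 5.
*Mif* (chr10:75860231-75860260, minus strand): actgagctgggtCACGTagctcaggtccct
*P4ha1* (chr10:59323046-59323295, plus strand): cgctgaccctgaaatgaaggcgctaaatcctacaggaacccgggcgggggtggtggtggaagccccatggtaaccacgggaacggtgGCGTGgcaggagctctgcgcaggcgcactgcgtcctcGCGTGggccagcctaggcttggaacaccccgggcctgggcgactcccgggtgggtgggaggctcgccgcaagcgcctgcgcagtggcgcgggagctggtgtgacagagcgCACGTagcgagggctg
*Adm* (chr7:110627407-110627656, plus strand): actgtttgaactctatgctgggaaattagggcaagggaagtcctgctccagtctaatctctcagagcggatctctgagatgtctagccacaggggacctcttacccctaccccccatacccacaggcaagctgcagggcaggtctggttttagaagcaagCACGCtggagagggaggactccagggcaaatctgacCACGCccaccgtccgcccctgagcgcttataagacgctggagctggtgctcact
*Bnip3* (chr7:138909507-138909756, minus strand): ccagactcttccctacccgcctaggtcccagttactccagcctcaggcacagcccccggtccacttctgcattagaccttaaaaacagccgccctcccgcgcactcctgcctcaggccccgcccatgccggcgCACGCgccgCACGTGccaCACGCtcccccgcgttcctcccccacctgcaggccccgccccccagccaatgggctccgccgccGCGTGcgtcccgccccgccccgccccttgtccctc

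**Figure D1:**
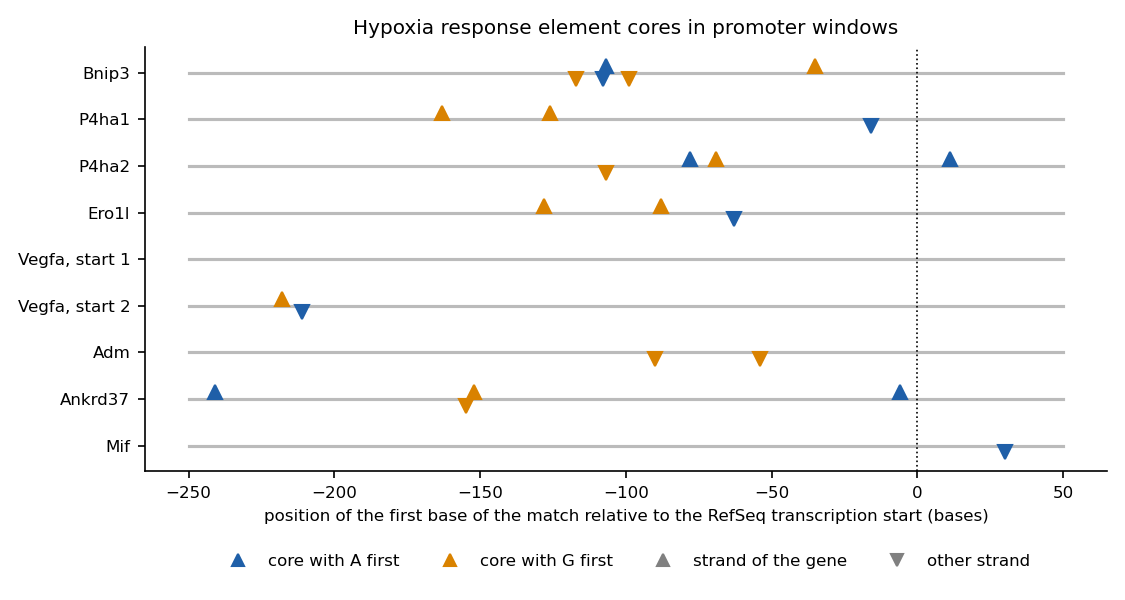
Position of each ACGTG or GCGTG core in the 9 RefSeq promoter windows, as the distance in bases from the transcription start, with the first base of the core and its strand given by the symbol. *Bnip3* held 5 matches, the first *Vegfa* start held none, and the only match of *Mif* lay after the RefSeq start, at 30 bases.

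In KO B cells, 7 of the 9 tested targets had a lower mean level than in WT, and *Ndrg1* and *Bnip3l* had a higher one. In all genes tested, 57.9% were lower in KO. The median log2 fold change of the 9 was −0.26, against −0.028 over all genes tested. With all 6 libraries no member passed an adjusted p of 0.05, and neither did any other gene (0% of all genes tested, limma with Benjamini-Hochberg adjustment), while 929 genes had an unadjusted p under 0.05. *Mif*, *P4ha1* and *Vegfa* were lower with an unadjusted p under 0.05, which is 3 of 9, beside 4.5% of all genes. All KO libraries lay below all WT libraries for *Mif* and *P4ha1*, which is 2 of 9, beside 6.03% of all genes. In bulk RNA, fewer cells of one type and less RNA per cell cannot be told apart.

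The choice to leave out WT replicate 1 was made from these same values, so the adjusted p-values without it are descriptive. Leaving it out changed these counts. Without it, *Vegfa*, *Mif*, *Adm* and *Ero1l* were lower in KO at an adjusted p under 0.05 (limma), which is 4 of 9, beside 5.75% of all genes called lower. *Ndrg1* was higher, which is 1 of 9, beside 3.64% called higher. The median of the 9 log2 fold changes was then −0.38. The groups of 7 members did not overlap without WT replicate 1, beside 50.5% of all genes in either direction. They did not overlap for 4 members without KO replicate 2, beside 21.3% of all genes, and for 4 without KO replicate 3, beside 19.2%. For 7 of the 9, WT replicate 1 was nearer to the KO mean than to the mean of the other WT libraries. The same held for 77.5% of all genes tested, a share close to that of the members. The exceptions were *P4ha1* and *Ankrd37*.

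**Figure D2:**
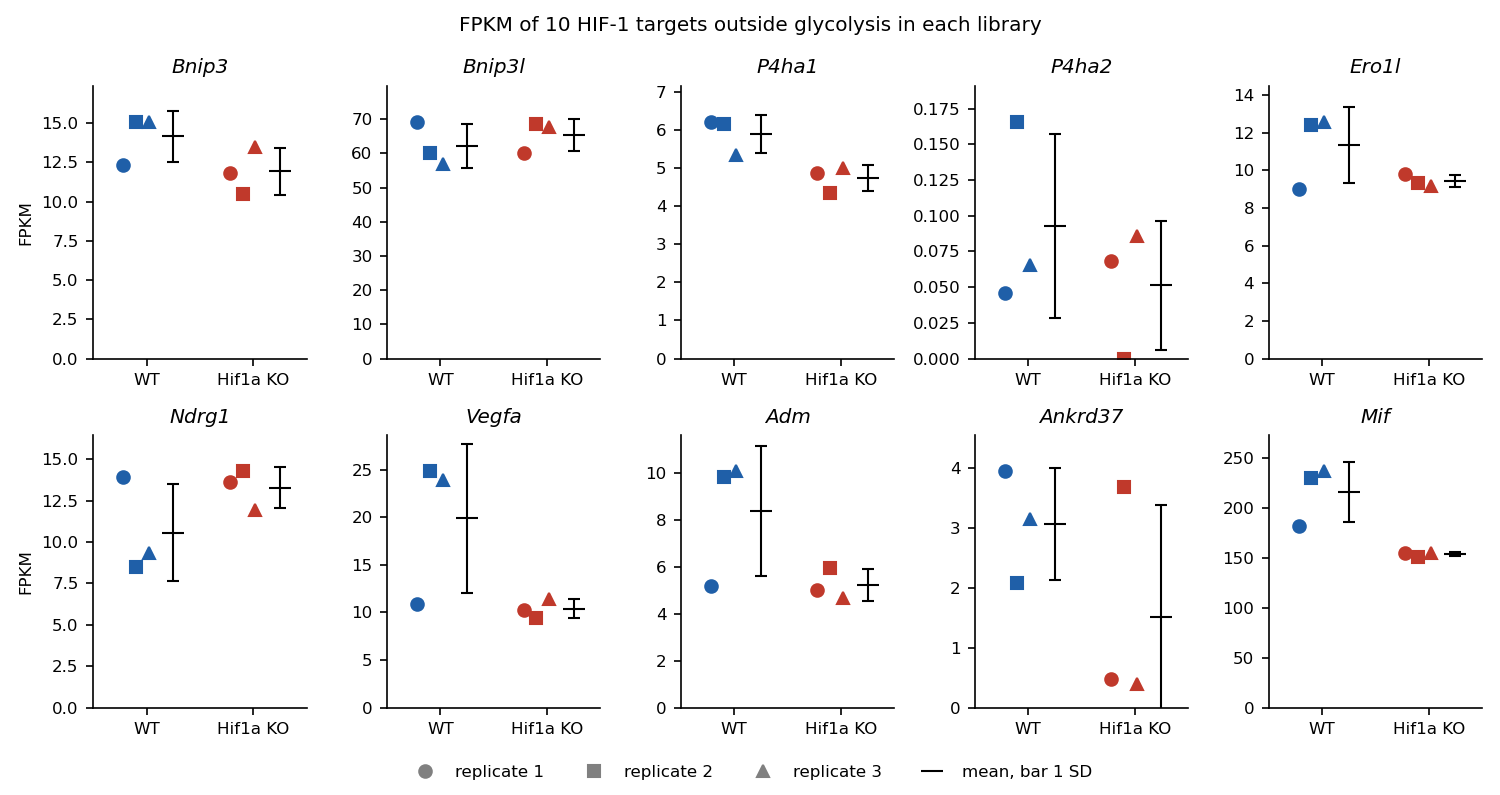
FPKM of the 10 genes in the 3 WT and 3 KO libraries, 1 panel per gene, with points for libraries and a line with bars for the mean ± SD (n = 3 each). WT replicate 1 lay among or near the KO libraries for *Vegfa* and *Adm*, and *Mif* was at 181.6 to 237.0 FPKM in WT against 151.1 to 154.8 FPKM in KO. The lower end of the SD bar of *Ankrd37* in KO falls below 0 and is not drawn.

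Levels per transcript length differed widely between the genes. *Mif* was the highest, above 95.4% of the tested genes by mean FPKM, followed by *Bnip3l*, above 83.9%, and neither overlapped any other member in any library. *Vegfa*, *Bnip3*, *Ndrg1* and *Ero1l* came next and overlapped one another. *Adm* and *P4ha1* followed and overlapped as well, and *Ankrd37*, above 19.7% of the tested genes, was the lowest of those tested.

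*Mif*, a secreted cytokine that signals through CD74, was lower in every KO library. It lay on chromosome 10 (ENSMUSG00000033307, chr10:75859353-75860240, minus strand, in the GRCm38 build, as for all positions given here). WT replicates 1 to 3 were at 181.6, 229.6 and 237.0 FPKM, and KO replicates 1 to 3 were at 154.8, 151.1 and 154.2 FPKM. The groups did not overlap, and the KO libraries were much closer together than the WT libraries. The means were 216.1 ± 30.1 FPKM in WT and 153.4 ± 2.03 FPKM in KO (SD, n = 3 each). The log2 fold change was −0.48 (SE 0.11, 95% confidence interval −0.73 to −0.23) with an unadjusted p of 0.00266 and an adjusted p of 0.626 by limma. Without WT replicate 1 it was −0.60 (SE 0.051, adjusted p = 0.00437, limma). The study displays *Mif* by name among the genes that differed in these same libraries, so its direction here is not independent evidence. The study called genes with DESeq and captioned that display with a fold change cutoff well above the value found here. An exact two-sided permutation test gave p = 0.1, the smallest that 3 against 3 libraries can give.

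Genes of the MIF pathway lay in both directions. Of 6 tested genes for its homologue, receptors and partner, 3 were lower and 3 higher in KO, at a median of −0.035 on the log2 scale, and none passed an unadjusted p of 0.05. *Cd74*, which encodes the MIF receptor and invariant chain, was at 2773 to 3426 FPKM over the libraries with a log2 fold change of 0.021. *Ddt*, the homologue of *Mif*, had a log2 fold change of −0.25, while those of the co-receptor genes *Cd44* and *Cxcr4* were 0.14 and 0.090. *Cops5*, which encodes a MIF-binding subunit of the COP9 signalosome, had one of −0.091. *Ackr3*, which encodes a scavenging receptor that binds MIF as well as adrenomedullin, had one of −0.71, with the smallest p of the list (unadjusted p = 0.0653, limma). Without WT replicate 1 it was the 1 gene of the 6 called lower, beside 5.75% of all genes.

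*Vegfa*, the main growth factor for blood vessels, was lower in every KO library than in 2 of the 3 WT libraries. It lay at chr17:46016993-46032369 on the minus strand (ENSMUSG00000023951). The WT libraries were at 10.9, 24.9 and 23.9 FPKM, and the KO libraries were at 10.3, 9.41 and 11.4 FPKM. WT replicate 1 fell within the KO range and WT replicates 2 and 3 lay far above it. The means were 19.9 ± 7.83 FPKM in WT and 10.4 ± 1.02 FPKM in KO (SD, n = 3 each), and the log2 fold change was −0.80 (SE 0.29, unadjusted p = 0.0298, adjusted p = 0.626, limma). Without WT replicate 1 the log2 fold change came to −1.16 (with an SE of 0.092 and an adjusted p of 0.0039, limma).

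*Adm* encodes adrenomedullin, a peptide that dilates vessels and tightens the endothelial barrier, and its WT libraries were split like those of *Vegfa*. It lay at chr7:110627661-110629820 on the plus strand (ENSMUSG00000030790). WT was at 5.20, 9.85 and 10.1 FPKM and KO at 5.03, 5.97 and 4.69 FPKM. Here too WT replicate 1 was inside the KO range and the other WT libraries were above it. The log2 fold change was −0.55 (SE 0.23, 95% confidence interval −1.10 to 0.0010, adjusted p = 0.626, limma) with means of 8.38 ± 2.76 FPKM in WT and 5.23 ± 0.66 FPKM in KO (SD, n = 3 each). With that library left out it was −0.82 (SE 0.11, adjusted p = 0.0121, limma).

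The same 2 WT libraries that were high in *Vegfa* and *Adm* were those with the higher macrophage and monocyte marker sum. *Adgre1* and *Mpeg1* had the highest means of those markers and made up most of the sum in every library. In KO replicate 1 they were at 67.7 and 41.9 FPKM, out of a sum of 122.8 FPKM. Which cells expressed them was not tested, so the sum is no measure of macrophage content. *Adgre1* was at 91.1 and 81.1 FPKM in WT replicates 2 and 3 and at 55.5 to 69.7 FPKM in the other libraries. *Mpeg1* was at 95.3 and 86.1 FPKM against 41.9 to 69.9 FPKM. *Lyz2*, named after its values were seen, was at 58.3 and 26.2 FPKM against 0.6 to 6.18 FPKM. *Itgam*, named in the same way, was not higher, at 0.205 and 0.0678 FPKM against 0.13 to 0.236 FPKM. Of the 15 markers, 11 were higher in both of these WT libraries. A split of this kind was not particular to the markers. For 77.5% of all genes tested, WT replicate 1 was nearer to the KO mean than to the mean of the other WT libraries. The part of macrophages and monocytes in the *Vegfa*, *Adm* and *Mif* results was not tested, nor was that of the neutrophil markers of WT replicate 1. Of 6 tested genes for VEGF and adrenomedullin ligands and receptors, 4 were lower and 2 higher in KO (median log2 fold change −0.16), with none past an unadjusted p of 0.05. *Ackr3*, which is on this list too, was at 4.09, 9.37 and 9.72 FPKM in WT and at 3.09, 5.80 and 3.63 FPKM in KO, and its log2 fold change without WT replicate 1 was −1.06 (adjusted p = 0.0372, limma). *Calcrl*, the adrenomedullin receptor gene, and *Ramp3*, which encodes a partner of that receptor, had log2 fold changes of −0.28 and −0.33, and *Vegfb* had one of 0.23. *Nrp1*, *Ramp1* and *Ramp2* were under 0.5 FPKM and were not tested.

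**Figure D3:**
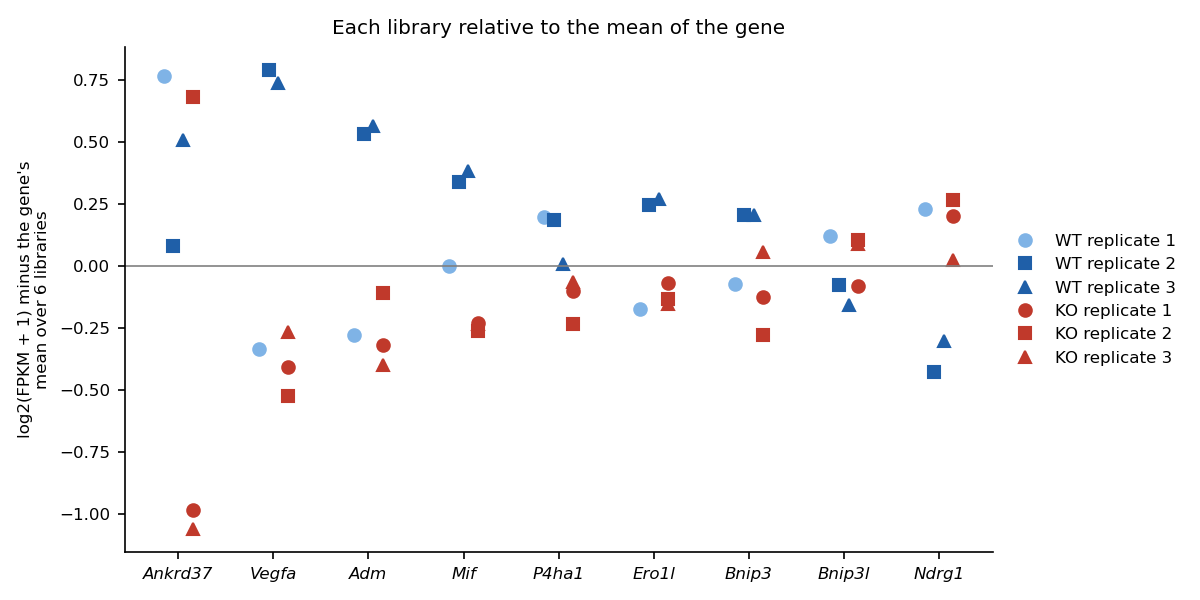
Difference of each library's log2(FPKM + 1) from the mean of the 6 libraries for the 9 tested genes. WT replicates 2 and 3 lay above the mean and WT replicate 1 below it for *Vegfa* and *Adm*, whereas KO replicate 2 lay above the other KO libraries for *Ankrd37*.

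*P4ha1* encodes a catalytic subunit of prolyl 4-hydroxylase, which hydroxylates collagen prolines, and it was lower in every KO library. It lay at chr10:59323296-59373304 on the plus strand (ENSMUSG00000019916). The WT libraries were at 6.22, 6.16 and 5.33 FPKM and the KO libraries at 4.86, 4.35 and 5.01 FPKM. The groups did not overlap, and WT replicate 1 was the highest library. The means were 5.90 ± 0.498 FPKM in WT and 4.74 ± 0.343 FPKM in KO (SD, n = 3 each), and the log2 fold change was −0.26 (SE 0.096, 95% confidence interval −0.49 to −0.036, unadjusted p = 0.029, adjusted p = 0.626, limma). Unlike *Mif*, the gene did not pass the adjusted threshold without WT replicate 1, where its log2 fold change came to −0.23 (with an SE of 0.10 and an adjusted p of 0.191, limma).

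The paralogue *P4ha2* was barely detected. It lay at chr11:54100095-54131665 (ENSMUSG00000018906, plus strand). Its reads, recovered from the FPKM values, were 2, 6 and 2 in WT and 2, 0 and 3 in KO. The summed reads were 10 in WT (exact Poisson 95% interval 4.80 to 18.4) and 5 in KO (1.62 to 11.7), intervals that overlap and cover counting error only, so a difference was not detectable at this depth. *P4hb*, the β subunit that both catalytic subunits need, was at 222.8 to 265.4 FPKM in WT and 223.9 to 289.0 FPKM in KO, with a log2 fold change of 0.077.

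Of 10 tested genes of collagen hydroxylation and modification, 7 were lower and 3 higher in KO (median log2 fold change −0.077). Of these, 1 was lower with an unadjusted p under 0.05 (limma), beside 4.5% of all genes. That gene was *Colgalt1*, a collagen galactosyltransferase, at 55.1, 69.5 and 69.3 FPKM in WT and 52.1, 51.6 and 53.7 FPKM in KO, with a log2 fold change of −0.29. Without WT replicate 1 *Colgalt1* and the lysyl hydroxylase gene *Plod2* were lower in KO, at log2 fold changes of −0.40 (adjusted p = 0.0126, limma) and −0.72 (adjusted p = 0.0247, limma). That is 2 of 10, beside 5.75% of all genes called lower. *Crtap*, which encodes a partner of collagen prolyl 3-hydroxylase, had a log2 fold change of −0.11. *P4ha3*, the third catalytic paralogue, was under 0.5 FPKM.

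*Ero1l* encodes the oxidase that recharges protein disulfide isomerase in the endoplasmic reticulum, a step plasma cells rely on for antibody folding. It lay at chr14:45283087-45318771 on the minus strand (ENSMUSG00000021831, *Ero1a* in RefSeq). WT was at 9.03, 12.4 and 12.6 FPKM and KO at 9.79, 9.32 and 9.16 FPKM. WT replicate 1 was the lowest library of all, so the groups overlapped. The log2 fold change came to −0.23 (with an SE of 0.13 and an adjusted p of 0.626, limma) with means of 11.4 ± 2.01 FPKM in WT and 9.42 ± 0.327 FPKM in KO (SD, n = 3 each). It was −0.38 without WT replicate 1 (SE 0.070, adjusted p = 0.0296, limma).

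Its paralogue *Ero1lb*, which serves secretory cells, lay in the other direction. It was at 47.1, 28.9 and 26.6 FPKM in WT and 45.1, 43.9 and 52.7 FPKM in KO, with a log2 fold change of 0.50 (unadjusted p = 0.0488, limma) and of 0.74 without WT replicate 1 (adjusted p = 0.0114, limma). Of 15 tested genes of oxidative folding in the endoplasmic reticulum, 2 were lower and 13 higher in KO, with a median log2 fold change of 0.081. *Erp44* and *Txndc5*, of the same list, had log2 fold changes of 0.18 and 0.44. Without WT replicate 1 the list held 2 genes called higher, *Ero1lb* and *Txndc5*, beside 3.64% of all genes. The sum of 6 plasma-cell markers was 715.4, 429.4 and 398.8 FPKM in WT and 681.2, 505.2 and 905.9 FPKM in KO. *Xbp1*, named after its values were seen, was the largest part of it, at 193.4 to 474.1 FPKM. The KO mean was lower for 1 of the 6, *Sdc1*, named in the same way. *Sdc1* was at 4.67, 3.8 and 3.19 FPKM in WT and at 2.68, 3.67 and 4.01 FPKM in KO. The part of plasma cells in the level of the folding genes was not tested.

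*Bnip3* encodes an outer mitochondrial membrane protein that recruits the autophagy machinery. It lay at chr7:138890836-138909519 on the minus strand (ENSMUSG00000078566). The WT libraries were at 12.3, 15.1 and 15.1 FPKM and the KO libraries at 11.8, 10.5 and 13.5 FPKM. WT replicate 1 lay between KO libraries, and the other 2 WT libraries lay above all of them. Its log2 fold change came to −0.23 (with an SE of 0.12 and an adjusted p of 0.626, limma), with means of 14.2 ± 1.65 FPKM in WT and 12 ± 1.51 FPKM in KO (SD, n = 3 each), and it was −0.32 without WT replicate 1 (SE 0.11, adjusted p = 0.113, limma).

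*Bnip3l*, its paralogue and the receptor known for clearing mitochondria from maturing red cells, stood at a higher level per length. It lay at chr14:66985239-67008877 on the minus strand (ENSMUSG00000022051). WT was at 69.3, 60.2 and 56.9 FPKM and KO at 60.0, 68.5 and 67.6 FPKM. The groups overlapped across most of their range, with means of 62.1 ± 6.43 FPKM in WT and 65.4 ± 4.64 FPKM in KO (SD, n = 3 each). The log2 fold change was 0.075 (95% confidence interval −0.15 to 0.30, adjusted p = 0.779, limma). It was 0.15 without WT replicate 1 (adjusted p = 0.236, limma) and ranged from 0.015 to 0.15 over all settings tried. A pseudogene of *Bnip3l* in the table, which could share reads with it, had a mean of 5.78 FPKM and a log2 fold change of −0.012. Among 22 tested mitophagy receptors and adaptors, 11 were lower and 11 higher in KO, at a median of −0.0012 on the log2 scale, and none passed an unadjusted p of 0.05. *Phb2*, which encodes prohibitin 2, an inner-membrane mitophagy receptor, had the smallest p of the list (unadjusted p = 0.0566, log2 fold change −0.15, limma), and all its KO libraries, at 201.2 to 211.3 FPKM, lay below all its WT libraries, at 213.7 to 235.9 FPKM. *Sqstm1* and *Gabarapl1* had log2 fold changes of −0.32 and −0.24, and the hypoxia-responsive receptor gene *Fundc1* had one of 0.12, with all KO libraries above all WT libraries. Of the 22 genes, 2 had all KO libraries below all WT libraries and 1 had all above, beside 803 and 541 of the 13312 genes tested. Without WT replicate 1 no gene of the list was called.

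*Ndrg1* encodes a cytoplasmic stress-response protein and was the member with the highest positive fold change. It lay at chr15:66929318-66969640 on the minus strand (ENSMUSG00000005125). The WT libraries were at 13.9, 8.47 and 9.31 FPKM and the KO libraries at 13.6, 14.3 and 11.9 FPKM. WT replicate 1 was inside the KO range, and the other WT libraries were below it. The means were 10.6 ± 2.93 FPKM in WT and 13.3 ± 1.23 FPKM in KO (SD, n = 3 each), and the log2 fold change came to 0.33 (with an SE of 0.18 and an adjusted p of 0.626, limma). With that library left out it was 0.53 (SE 0.098, adjusted p = 0.0293, limma). Of the other NDRG family genes, *Ndrg3* and *Ndrg4* were tested, at log2 fold changes of 0.063 and −0.12, and *Ndrg2* was under 0.5 FPKM.

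*Ankrd37*, an ankyrin-repeat gene with few known functions and a widely used marker of hypoxia, had the largest fold change of the 9 with all 6 libraries, and the widest error. It lay at chr8:45996902-46005707 on the minus strand (ENSMUSG00000050914). The WT libraries were at 3.96, 2.09 and 3.15 FPKM, and the KO libraries were at 0.474, 3.68 and 0.397 FPKM. The recovered reads were 112, 49 and 62 in WT and 9, 96 and 9 in KO. KO replicates 1 and 3 lay below every WT library, and KO replicate 2 lay above 2 of the 3. The means were 3.06 ± 0.942 FPKM in WT and 1.52 ± 1.87 FPKM in KO (SD, n = 3 each). The log2 fold change was −0.91 (SE 0.47, 95% confidence interval −2.02 to 0.21, adjusted p = 0.626, limma), and it was −0.75 without WT replicate 1 (adjusted p = 0.399, limma). Single KO libraries moved it both ways, to −1.48 without KO replicate 2, −0.64 without KO replicate 1 and −0.60 without KO replicate 3, and it was −1.58 with a pseudocount of 0.1 and −1.61 with voom on the recovered reads. None of these passed the adjusted threshold. The annotated span of *Ankrd37* overlaps that of *Ufsp2* by 57 bases on the opposite strand, and *Ufsp2* was at 32.4 to 36.7 FPKM in all libraries. Whether the counting used strand is not given in the sources used here, and the part of *Ufsp2* reads in the *Ankrd37* level was not tested.

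**Figure D4:**
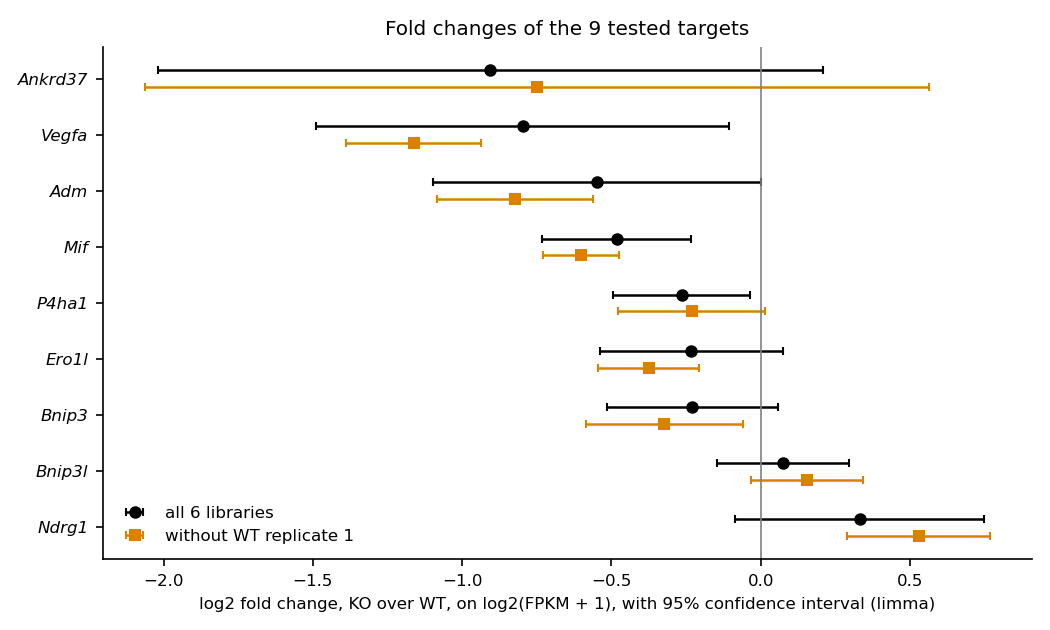
Log2 fold change of KO against WT with its 95% confidence interval for the 9 tested genes, on log2(FPKM + 1), with all 6 libraries and without WT replicate 1. Without that library the interval of *Vegfa* ran from −1.39 to −0.94 and that of *Mif* from −0.73 to −0.48, and *Ndrg1* lay above 0.

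Other hypoxia targets outside glycolysis lay in both directions, and none passed the adjusted threshold with all 6 libraries. Of 30 tested, 17 were lower and 13 higher in KO, beside 57.9% of all genes lower. Their median was −0.050 on the log2 scale, against −0.028 over all genes tested. With an unadjusted p under 0.05 (limma), 4 were lower and 1 higher, beside 4.5% of all genes lower and 330 of 13312 genes higher. Without WT replicate 1 their median was −0.089. In that fit 6 were called lower and 2 higher (limma), beside 5.75% and 3.64% of all genes. *Ddit4*, an inhibitor of mTORC1, was at 82.1, 125.6 and 116.2 FPKM in WT and 69.8, 75.6 and 76.6 FPKM in KO. Its groups did not overlap, and its log2 fold change was −0.52 (unadjusted p = 0.0126, limma) and −0.70 without WT replicate 1 (adjusted p = 0.00603, limma). *Higd1a*, a mitochondrial respiratory chain factor, and *Car12*, a carbonic anhydrase, did not overlap between groups either, at log2 fold changes of −0.24 and −0.32. *Car12* was at only 0.535 to 1.04 FPKM, near the filter of 0.5 FPKM. In all, 4 of the 30 had every KO library below every WT library, and 1 had every KO library above. Among the 13312 genes tested, 803 and 541 did so. *Egln3*, a prolyl hydroxylase that is itself a HIF target, had a log2 fold change of 0.21. *Hmox1*, which encodes heme oxygenase and was named after its values were seen, was at 4.77, 99.8 and 49.5 FPKM in WT and at 5.32 to 6.12 FPKM in KO, again with WT replicate 1 beside the KO libraries. Its log2 fold change was −2.21 with all 6 libraries (adjusted p = 0.626, limma) and −3.42 without WT replicate 1 (adjusted p = 0.0039, limma). The WT libraries high in *Hmox1* were those with the higher macrophage and monocyte marker sum, 295.9 and 221.4 FPKM. The part of those cells in the *Hmox1* level was not tested.

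For comparison, of 21 tested hypoxia targets in glycolysis, 17 were lower and 4 higher in KO, with a median log2 fold change of −0.21. Of these, 10 were lower and 1 higher with an unadjusted p under 0.05 (limma), beside 4.5% of all genes lower and 330 of 13312 genes higher. *Aldoa*, *Pkm* and *Pgam1* had log2 fold changes of −0.40, −0.29 and −0.23. Without WT replicate 1 the median of the glycolytic genes was −0.14, and that of the 9 members was −0.38. In that fit 7 glycolytic genes were called lower and 0 higher (limma), beside 5.75% and 3.64% of all genes.

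**Figure D5:**
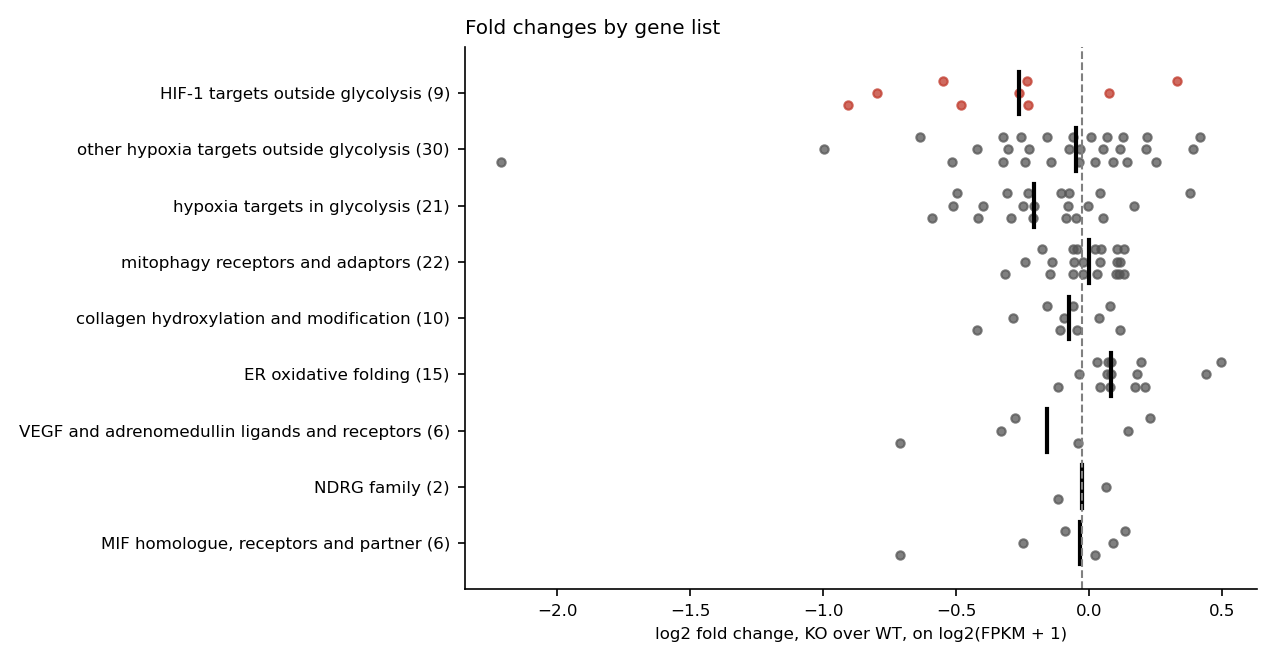
Log2 fold change of KO against WT, with all 6 libraries, for the tested genes of each list, 1 point per gene with a bar at the list's median and a dashed line at the median of all genes tested. The median of the 9 members was −0.26, that of the 21 glycolytic targets −0.21 and that of the 15 oxidative folding genes 0.081.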

How the data were processed

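The libraries were made with a SMARTER mRNA-Seq kit. According to the study's methods, the authors filtered the reads, aligned them with TopHat and counted them per gene with HTSeq, and they deposited FPKM per gene and library. The annotation release and the strand setting are not given in the sources used here. Symbols and spans were taken from the GENCODE vM21 annotation, which held a symbol for 46488 of 46983 gene IDs. FPKM was converted to log2(FPKM + 1), which understates the change of low genes, and genes with a mean of at least 0.5 FPKM were compared between KO and WT with limma 3.58.1 in R 4.3.3 (lmFit and eBayes with a trend), with Benjamini-Hochberg adjustment over all 13312 genes tested and a threshold of 0.05. Whole reads were recovered from the FPKM values for 25715 of 25717 genes above 0, within 0.01 reads, and were used in 1 alternative (voom). No 2 libraries held identical values. The 10 members and all lists were chosen with earlier results of these data known. Partner genes were named by a rule, namely the 3 smallest p-values of each list plus set partners, and a gene outside it is said to be so where it is named. Another pseudocount (0.1), other filters and scalings, a replicate block, library weights and leaving out each library were tried as alternatives.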

Additional observations from a re-analysis of the deposited data

How the results depend on the processing

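With library weights estimated from the data, which gave WT replicate 1 the lowest weight (0.238), 1449 genes and 5 members passed the adjusted threshold. These weights rest on the same values, so they are no separate check on leaving that library out. When each library was left out in turn, the genes called ranged from 0 to 1251, with 1 without KO replicate 1 and 1251 without WT replicate 1. The members called ranged from 0 to 5, those with groups that did not overlap from 2 to 7, and the median log2 fold change of the members from −0.38 to −0.23. In each of these, 7 members were lower in KO. Members whose groups did not overlap numbered 7 without WT replicate 1 (50.5% of all genes did not), 4 without KO replicate 2 (21.3%) and 4 without KO replicate 3 (19.2%). Of 143 member values under 16 alternatives, 133 kept their direction and side of the threshold, 10 passed it in the same direction (*Vegfa*, *Mif*, *Adm*, *Ero1l* and *Ndrg1*, with library weights and without WT replicate 1), and 0 turned direction. The cause was not tested. With the replicate number as a block, 0 genes and 0 members were called, and 694 genes had an unadjusted p under 0.05 (limma), against 929 without it. The deviations of same-numbered WT and KO libraries correlated at −0.099, 0.139 and −0.276. These values show no pairing by number, but with 3 libraries a group they cannot exclude one. The voom fit on recovered reads called 0 genes, with 830 at an unadjusted p under 0.05. With 3 libraries a group, an exact permutation test cannot give a p under 0.1, and the few reads of *P4ha2* and *Ankrd37* limit what can be said of them.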
